A study of Caenorhabditis elegans with 2 samples.

Results

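The CDC-48 segregase of Caenorhabditis elegans was examined as a set of 5 genes in ChIP-seq of NHR-12, a nuclear hormone receptor. The genes were cdc-48.1 and cdc-48.2, which encode the ATPase, ufd-1, which encodes 1 subunit of its substrate-recruiting cofactor, and npl-4.1 and npl-4.2, which encode the other subunit. They were taken by symbol from the Ensembl annotation of the WBcel235 assembly, which is also named ce11, out of 19973 nuclear protein-coding genes. The set was chosen on measured values of these data, a strong peak upstream of cdc-48.1 with none at cdc-48.2, so that contrast is given as a description with no test. Whole L2 larvae of strain OP318, which has the genotype unc-119(ed3) III with the integrated transgene wgIs318, expressed NHR-12 joined to enhanced green fluorescent protein (GFP). Per the labels, male and female animals were pooled and 2 biological replicates form the only group. The antibody field names nhr-12, and the sample description says that ChIP-seq was against eGFP-nhr-12. No second genotype, stage or treatment is part of the design.

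CDC-48, called p97 or VCP in mammals, is a hexameric AAA ATPase that pulls ubiquitin-tagged proteins out of complexes, membranes and chromatin and hands them to the proteasome. UFD-1 and NPL-4 form a dimer that binds the ubiquitin chain and docks the substrate on the ATPase. The machine is known for its work in endoplasmic reticulum-associated degradation (ERAD) and in chromatin during DNA replication, and worms have a pair of CDC-48 genes with overlapping roles in embryos.

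ChIP-seq lists intervals, called peaks, where sequenced DNA is enriched over a control, each with a summit, the base of highest enrichment, and a signal value from the peak caller. There were 4 lists. Relaxed lists, which hold weak peaks as well, had 30000 peaks in replicate 1, 30000 in replicate 2 and 29431 in the pooled replicates. The pooled one is labelled as peaks and background, so a relaxed summit need not mark binding. The thresholded list kept 228 pooled peaks by their irreproducible discovery rate (IDR), which scores how alike replicates rank a peak. Of these, 199 were nuclear and the others mitochondrial. The lowest signal value was 37.2 in the thresholded list, 9.21 in the pooled list, 2.40 in replicate 1 and 7.66 in replicate 2. Signal values are the authors' own. The thresholded list keeps the pooled values, and each replicate list is on a scale of its own. Values are thus compared only within a list or between the thresholded and pooled lists. No list gives read counts, so the depth is unknown. A gene was given every summit in its body or within 1000 bp upstream of its 5' end.

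The 250 bases before the 5' ends of cdc-48.1, cdc-48.2 and npl-4.1 are shown because the peak at cdc-48.1 lies in this stretch, its paralogue has no summit there, and the stretch is identical in npl-4.1 and npl-4.2. They were read from the RefSeq genome of WBcel235 on the strand of the gene, 5' to 3', and the capitals mark the 81 bases of the thresholded peak.
cdc-48.1, chrII:10563408-10563657, minus strand: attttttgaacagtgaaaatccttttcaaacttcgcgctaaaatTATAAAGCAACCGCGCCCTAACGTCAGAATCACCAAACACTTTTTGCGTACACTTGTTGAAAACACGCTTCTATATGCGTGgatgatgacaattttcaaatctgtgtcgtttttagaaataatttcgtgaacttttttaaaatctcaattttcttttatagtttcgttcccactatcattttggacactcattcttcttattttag
cdc-48.2, chrII:8138246-8138495, plus strand: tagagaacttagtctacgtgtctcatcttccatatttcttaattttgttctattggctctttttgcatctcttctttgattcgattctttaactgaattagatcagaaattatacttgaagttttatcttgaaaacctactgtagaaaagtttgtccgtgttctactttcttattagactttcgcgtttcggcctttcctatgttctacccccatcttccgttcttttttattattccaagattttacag
npl-4.1, chrII:5631101-5631350, plus strand, and npl-4.2, chrII:5622639-5622888, plus strand: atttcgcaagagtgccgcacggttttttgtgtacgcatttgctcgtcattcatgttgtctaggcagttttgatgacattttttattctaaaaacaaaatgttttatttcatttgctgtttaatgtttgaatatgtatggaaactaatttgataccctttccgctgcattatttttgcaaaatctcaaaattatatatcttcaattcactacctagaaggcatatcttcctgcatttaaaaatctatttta

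Of the 5 genes, only cdc-48.1 had a summit in the thresholded list, where 1.05% of all protein-coding genes had one. That peak spanned chrII:10563533-10563613, between genes, with its summit at 10563587, 180 bp upstream of the 5' end of cdc-48.1. Its signal value was 108.1, against a median of 46.6 over the 199 nuclear thresholded peaks. It stood at rank 32 of all 228 peaks and at rank 4 of the nuclear ones. In the pooled relaxed list the same peak had rank 4 of 29401 nuclear peaks, whose median was 12.6.

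Both replicates carried the cdc-48.1 peak when called alone. In replicate 1 it spanned chrII:10563392-10563731, with the summit 155 bp upstream and a signal value of 35.9, rank 4 of 29971 nuclear peaks with a median of 3.70. In replicate 2 it spanned chrII:10563429-10563744, with the summit 180 bp upstream and a signal value of 68.9, rank 11 of 29972 nuclear peaks with a median of 10.7. The replicate summits were 25 bp apart, their intervals shared 303 bp, and each interval covered the whole 81-bp pooled peak. Replicate 1 thus ranked the peak higher than replicate 2, and both placed it among their strongest 11 nuclear peaks.

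**Figure D1:**
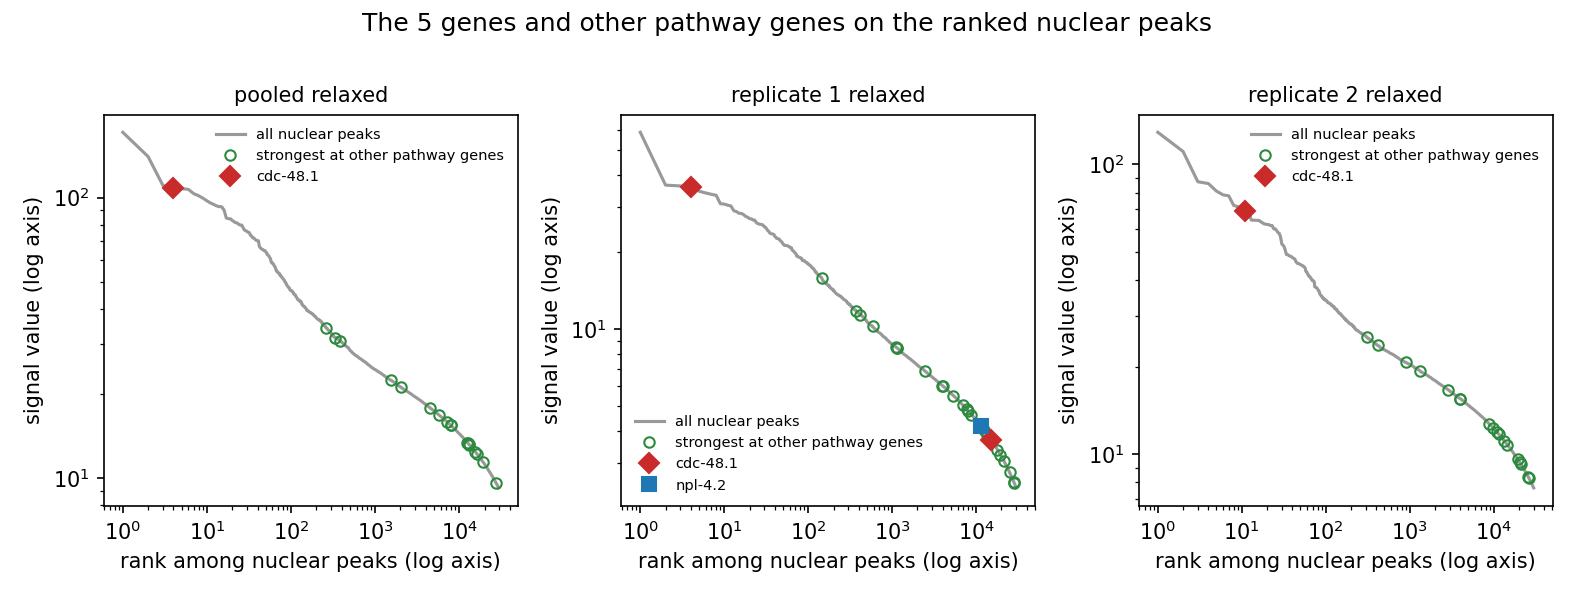
Nuclear peaks ordered by signal value in the pooled, replicate 1 and replicate 2 relaxed lists, with rank on the horizontal axis and the deposited signal value on the vertical axis, both logarithmic. Red diamonds of cdc-48.1 stand at rank 4, 4 and 11 at the steep end of each curve. In replicate 1 another red diamond, at rank 15029, is its weak summit in a coding exon. The blue square is the weak npl-4.2 peak of replicate 1, and green circles are the strongest peaks of other pathway genes.

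The cdc-48.1 peak was narrower than nearly all others. The modal width of nuclear thresholded peaks was 320 bp, held by 189 of the 199, and 3 were narrower. These were the peaks of cdc-48.1 at 81 bp, F44E5.16 at 150 bp and rpl-3, a ribosomal protein gene, at 156 bp. Called in a single replicate, the cdc-48.1 peak had the usual width of its list, 340 bp in replicate 1 and 316 bp in replicate 2. The narrow interval therefore appeared in the pooled calling and not in either replicate.

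A second, weak summit of cdc-48.1 lay in a coding exon 1930 bp downstream of the 5' end, in replicate 1 only. Its signal value was 3.69, close to the list median of 3.70, and its rank was 15029 of the nuclear peaks. The deposited −log10 q-value was 0.275 there, against 3.04 for the upstream peak of cdc-48.1 in the same list. The nearest annotated 5' end, 543 bp away, was that of C06A1.8, one of the snoRNA genes C06A1.8 and C06A1.9 annotated at this locus. The gene itself, WBGene00007352, spans chrII:10560036-10563407 on the minus strand with 5 exons. Its upstream neighbour C06A1.6 lies on the same strand 704 bp away and its downstream neighbour mnk-1 lies 4991 bp away.

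The paralogue cdc-48.2, WBGene00008053, had no summit in any of the 4 lists. It spans chrII:8138496-8141230 on the plus strand, also with 5 exons, and its window of 3735 bp is longer than the 3027 bp median of protein-coding genes. It stands head to head with ctns-1, 1577 bp away, overlaps ints-11 at its 3' end, and has rpl-10 as its downstream neighbour 2650 bp away. The nearest summit to its 5' end was 4751 bp upstream in the pooled list, with a signal value of 9.91. In replicate 1 the nearest was 1795 bp upstream, outside the window, with a signal value of 4.76, and ctns-1 was the gene with the nearest 5' end. In replicate 2 it was 7363 bp upstream, with a signal value of 10.8.

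Set side by side, the pooled summit nearest to a 5' end was 180 bp away at cdc-48.1 and 4751 bp away at cdc-48.2, against a median of 1167 bp over all protein-coding genes. Of those genes, 89.7% had their nearest pooled summit farther away than cdc-48.1 did, and 15.7% farther away than cdc-48.2 did. The proteins are 809 and 810 residues long, with 720 of 802 aligned residues identical (89.8%). The coding sequences were 76.6% identical over 2409 aligned bases and shared no identical run over 35 bp. Upstream they had little in common: the longest run shared by the pair of 250-base stretches printed above was 8 bp.

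**Figure D2:**
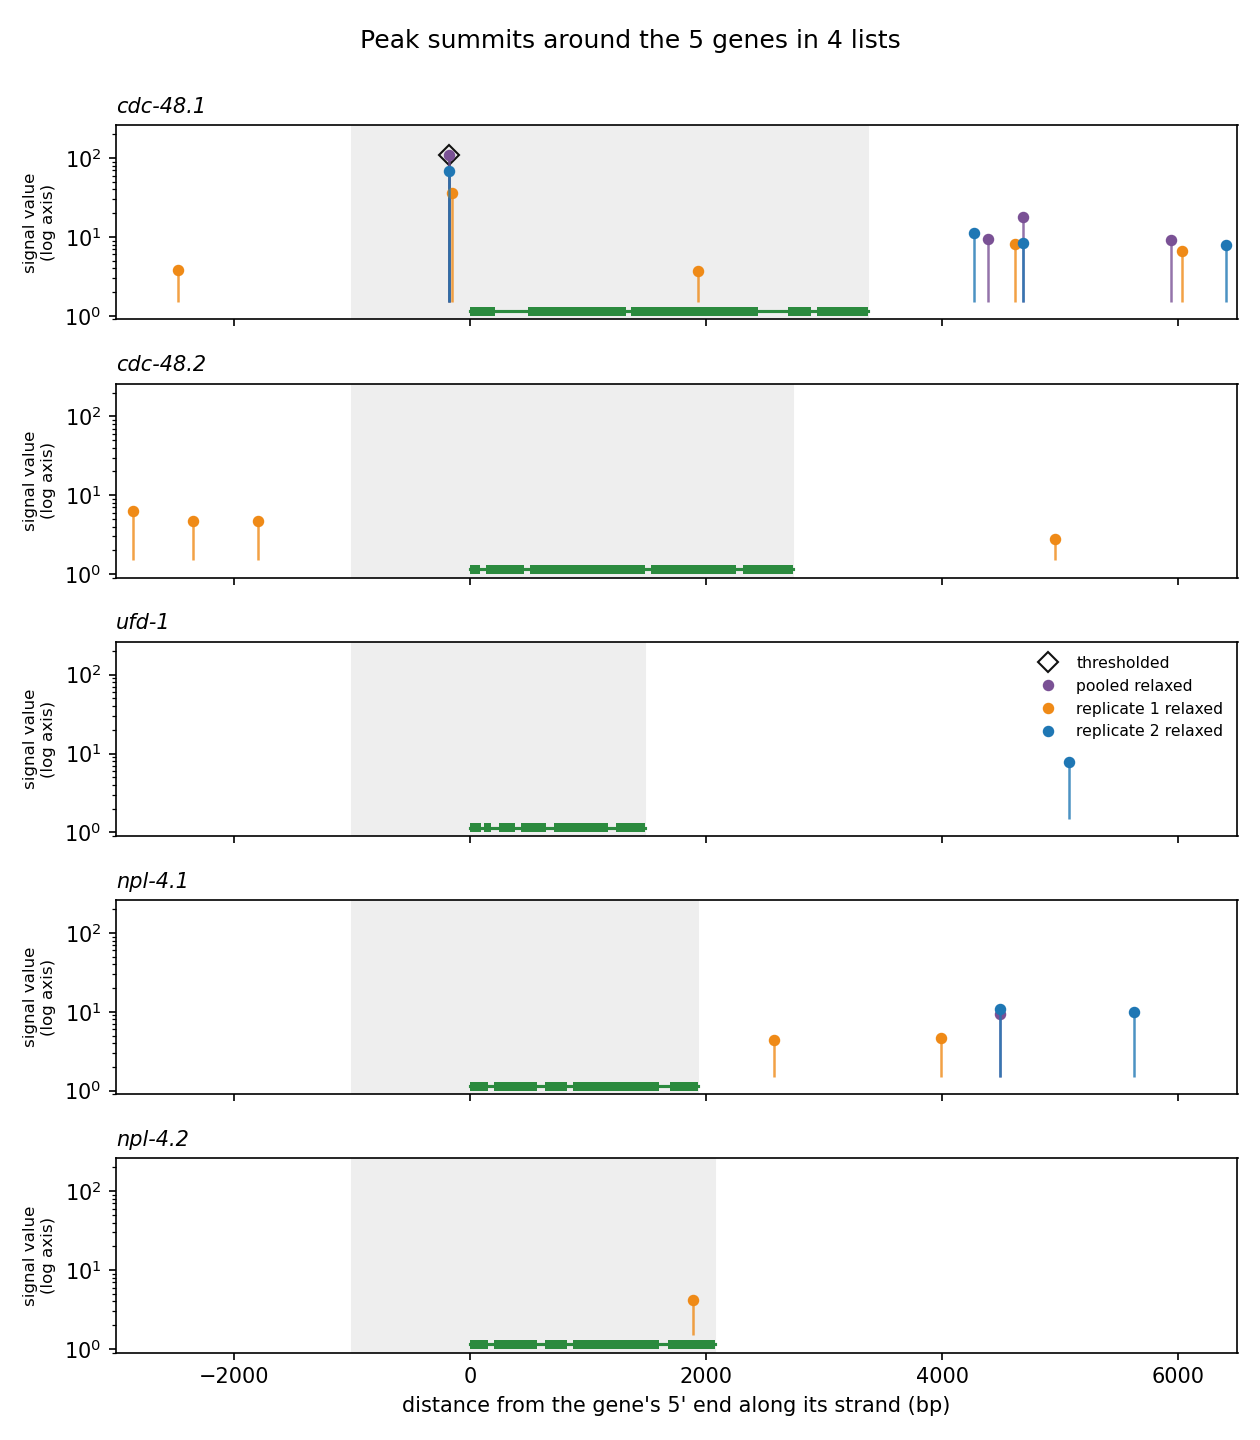
Summits around each of the 5 genes in the 4 lists, with distance from the gene's 5' end in bp on the horizontal axis and the deposited signal value on a logarithmic vertical axis. Grey shading is the window, green boxes are exons and marker colours and shapes are lists. Tall stems stand just upstream of cdc-48.1, within 180 bp of its 5' end, and the windows of cdc-48.2, ufd-1 and npl-4.1 hold no stem.

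The cofactor genes had no strong summit. The gene ufd-1, WBGene00006733, spans chrIV:12329408-12330890 on the minus strand, between F19B6.1, 85 bp upstream on the same strand, and F19B6.3, 481 bp downstream. It had no summit in any list, and the nearest pooled one lay 12590 bp upstream of its 5' end with a signal value of 16.0. Of all protein-coding genes, 2.70% had their nearest pooled summit farther away. The gene npl-4.1, WBGene00019120, spans chrII:5631351-5633284 on the plus strand and had no summit in any list either. Its neighbours are F59E12.6, head to head 399 bp away, and F59E12.8, 1243 bp downstream, and its nearest pooled summit was 4487 bp downstream of the 5' end with a signal value of 9.36.

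The gene npl-4.2, WBGene00019121, spans chrII:5622889-5624959 on the plus strand, head to head with eif-3.L 405 bp away and with F59E12.15 1355 bp downstream. It had 1 summit, in replicate 1 only, in its 3' UTR 1890 bp from the 5' end. The signal value there was 4.18, rank 11380 of 29971 nuclear peaks, above the list median of 3.70. Its deposited −log10 q-value was 0.403. The pooled list and replicate 2 had no summit in its window, and the nearest there were 9578 bp and 9571 bp from the 5' end.

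In the 3 relaxed lists, the 5 genes did not have summits at a higher share than all protein-coding genes. In the pooled list 1 of the 5 had a summit, where 56.0% of protein-coding genes had one. In replicate 1 it was 2 of 5, beside 63.4% of all, and in replicate 2 it was 1 of 5, beside 56.2% of all. In none of the 3 relaxed lists did cdc-48.2, ufd-1 or npl-4.1 have a summit, as was so for 21.0% of protein-coding genes. Such genes had a median window of 2273 bp. The median was 3027 bp over all protein-coding genes and 4228 bp over those with summits in all 3 lists. The windows of cdc-48.2, ufd-1 and npl-4.1 were 3735, 2483 and 2934 bp long. The part of window length in their lack of summits was not tested. By height, the cdc-48.1 peak stood near the top of every list. Ranked by strongest summit, cdc-48.1 was gene 3 of 210 in the thresholded list, 3 of 11178 in the pooled list, 6 of 12661 in replicate 1 and 11 of 11223 in replicate 2.

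The upstream sequences of npl-4.1 and npl-4.2 cannot be told apart by short reads from within them. Their 5' ends are 8462 bp apart, an identical run of 1339 bp reaches from 1325 bp upstream to 14 bp into both genes, and their proteins of 529 residues are identical at 524 positions (99.1%). A stretch of 36 bases was counted as repeated when it occurred more than once in the genome. All such stretches in the 1000 bp upstream of npl-4.1 and npl-4.2 were repeated, against 11.3% at cdc-48.1 and 0% at cdc-48.2 and ufd-1. The repeated stretches of cdc-48.1 lay at least 797 bp upstream, and none was in its peak. At npl-4.2, 40.0% of the stretches in the replicate 1 peak were repeated, and the stretch at its summit was not.

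In the relaxed lists, repeated upstream sequence went with an absence of summits across the genome. Of the 196 protein-coding genes whose upstream stretches were all repeated, npl-4.1 and npl-4.2 among them, 0 had an upstream summit in any of the 3 relaxed lists. Of the 13842 genes with no repeated upstream stretch, 37.4% had one in the pooled list, 37.6% in replicate 1 and 37.6% in replicate 2. In the thresholded list the values were 0 of the 196 and 1.00% of the 13842, too low a share for that 0 to be informative. Repeated stretches made up 7.93% of the nuclear genome, and stood at 0.888% of pooled summits, 1.28% of replicate 1 summits, 0.881% of replicate 2 summits and 2.51% of nuclear thresholded summits (5 of 199). Not given in the sources used here are the read length and how reads that match several places were treated. The part of repeats in the empty upstream regions of npl-4.1 and npl-4.2 was not tested. The windows of cdc-48.2 and ufd-1 hold no repeated stretch.

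**Figure D3:**
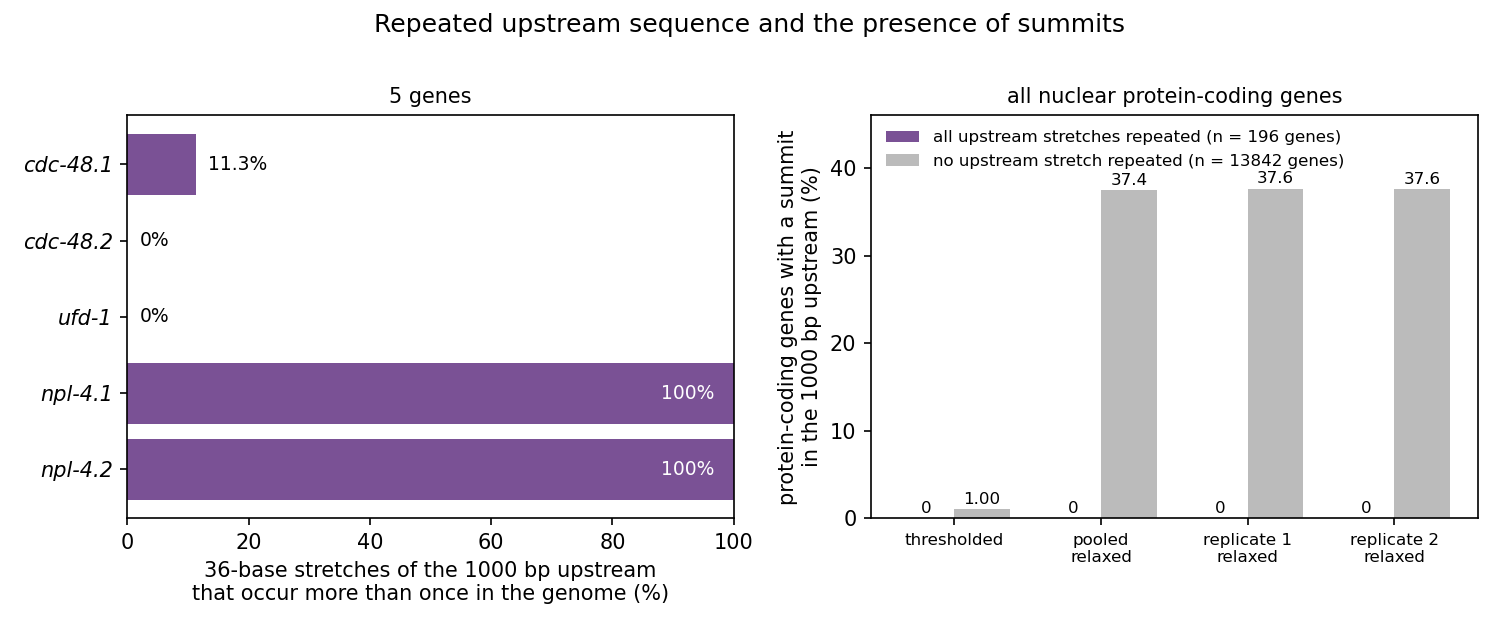
Left, the percentage of 36-base stretches in the 1000 bp upstream of each of the 5 genes that occur more than once in the genome. Right, the percentage of protein-coding genes with an upstream summit in each list, for genes whose upstream stretches are all repeated (purple) and genes with none repeated (grey): in the pooled list the value is 0 where all are repeated and 37.4% where none is, and in the thresholded list both values are low.

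A list of 31 other genes of the pathway gave the setting for the cdc-48.1 peak. None had a thresholded summit, where 1.05% of protein-coding genes had one, so a list of this size says little there. In the pooled list 18 of the 31 (58.1%) had a summit, with a median signal value of 15.4, beside 56.0% and a median of 14.4 over all protein-coding genes with one. In replicate 1 it was 23 (74.2%), beside 63.4% of all, and in replicate 2 it was 18 (58.1%), beside 56.2% of all. Summits in all 3 relaxed lists were found at 13 of the 31 (41.9%), beside 38.5% of protein-coding genes. The genes chn-1, der-2, rpt-1 and rpt-2, which are 12.9% of the 31, had none in any, beside 21.0% of protein-coding genes. By role, the pooled list had summits at 7 of 12 cofactors, 4 of 8 ERAD genes, 5 of 8 related AAA ATPases and 2 of 3 ubiquitin supply genes.

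Of the 31 genes, 3 (9.68%) had a summit among the strongest 1000 nuclear pooled peaks, where 4.46% of protein-coding genes had one. The gene ubc-6 encodes an ERAD ubiquitin-conjugating enzyme and had a pooled signal value of 34.3 at nuclear rank 263, 325 bp upstream. Its nuclear rank was 414 in replicate 1 and 897 in replicate 2. The gene ubq-2 encodes ubiquitin fused to a ribosomal protein and had a pooled signal value of 31.7 at nuclear rank 334, 487 bp upstream. Its nuclear rank was 1132 in replicate 1 and 416 in replicate 2. The gene rpt-6 encodes an ATPase of the proteasome base and had a pooled signal value of 30.8 at nuclear rank 384, 529 bp upstream. The replicates placed rpt-6 far apart, at nuclear rank 7681 in replicate 1 and 306 in replicate 2. All 3 pooled values were under the lowest thresholded one, 37.2, and under the 108.1 of cdc-48.1.

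Among the cofactors, 2 genes picked after their values were seen differed between replicates. The gene ubxn-2, which encodes a UBX-domain adaptor related to mammalian p47, had nuclear rank 145 in replicate 1, with a signal value of 15.8, and 2847 in replicate 2, with 16.7. Its strongest summit lay 178 bp upstream in replicate 1 and 268 bp upstream in replicate 2, so these ranks need not belong to the same peak. In the pooled list its strongest summit lay 178 bp upstream at nuclear rank 1556. The gene ufd-3, related to yeast Doa1, had a summit in replicate 1 only, with a signal value of 11.8 at nuclear rank 371, 99 bp upstream. Neither was close to the rank of cdc-48.1 in both replicates.

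**Figure D4:**
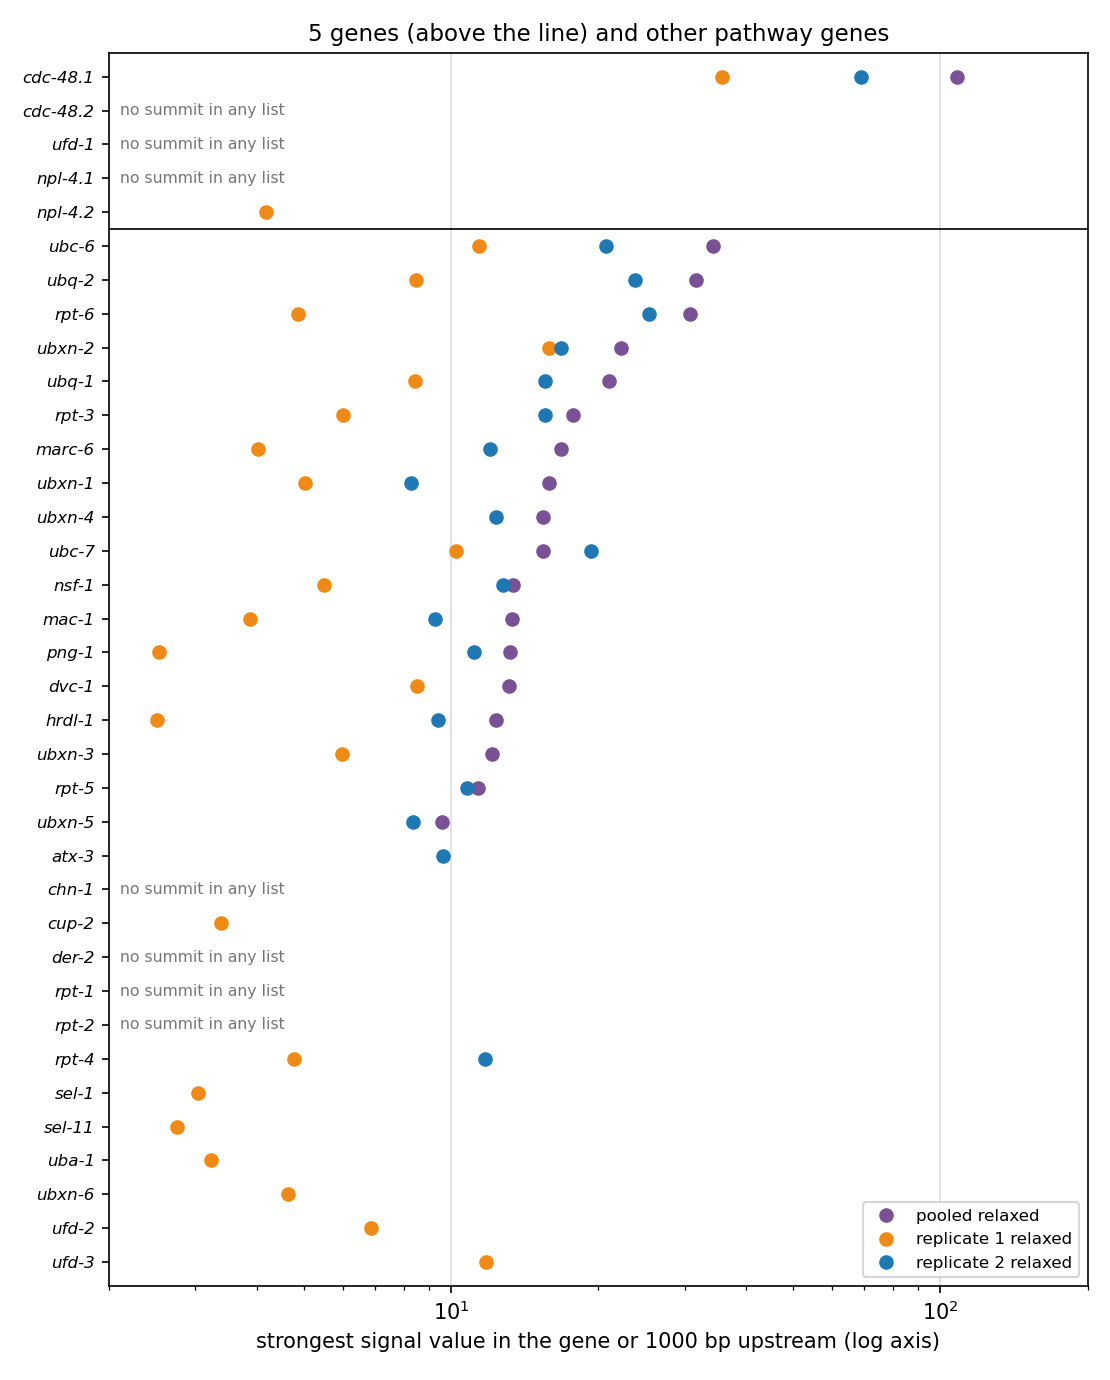
Strongest signal value per gene in the 3 relaxed lists, on a logarithmic axis, for the 5 genes above the line and the 31 other pathway genes under it, with lists told apart by colour. The cdc-48.1 points, at 108.1 pooled, 35.9 in replicate 1 and 68.9 in replicate 2, lie to the right of those of every pathway gene in the same list, and a gene with no point in a colour had no summit in that list.

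The genes whose nuclear ranks in the 3 relaxed lists were nearest to those of cdc-48.1 were sought among the 7699 protein-coding genes with a summit in all 3. Likeness was the Euclidean distance of log10 ranks, and the pooled list holds the reads of both replicates. The nearest was cox-5A, a cytochrome c oxidase subunit gene, at a distance of 0.389, with ranks 7, 8 and 12 in the pooled, replicate 1 and replicate 2 lists. Next were K11H12.8 and the ribosomal protein gene rpl-15, which share 1 summit, at 0.514, then puf-9, which encodes a PUF-family RNA-binding protein, at 0.579, and F36A2.7 at 0.856. All 5 had a thresholded summit, from 254 bp (puf-9) to 474 bp (K11H12.8) upstream of the 5' end. They were chosen for ranks near the top of the lists, so having a thresholded summit is not a separate result.

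Next above cdc-48.1 among nuclear pooled peaks stood a peak with a signal value of 110.4. It is named here by the nearest 5' end, that of Y48G10A.3, which was 1497 bp from its summit. Next under cdc-48.1 stood a peak of 107.6, 265 bp from the 5' end of F36A2.7. The strongest nuclear peak was that of rpl-3 at 170.9. Ranks 3 to 5 of the nuclear pooled peaks thus lay within 110.4 and 107.6, so the order among these neighbours rests on small differences, and its error is unknown.

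The 101 bases around the cdc-48.1 summit held 40.6% G and C, against medians of 46.5% at nuclear thresholded summits and 27.7% at nuclear pooled summits. Its promoter window, from 250 bases before to 50 after the 5' end, held 34.0% G and C. The windows of cdc-48.2, ufd-1, npl-4.1 and npl-4.2 held 36%, 32.0%, 33% and 32.7%, beside a median of 34.3% over all protein-coding genes. The name promoter is by position only, and the ufd-1 window reaches into F19B6.1, which ends 85 bp upstream.

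The promoter windows were searched on both strands for 7 short motifs. The nuclear receptor core motif AGGTCA was in no window of the 5 genes and in 8.27% of all 19973 windows. Its variant AGTTCA was in that of cdc-48.1 alone, 79 bp upstream on the minus strand relative to the gene, and in 20.4% of all. The letters TATAAA opened the peak of cdc-48.1, 206 bp upstream, recurred 52 bp upstream on the opposite strand, and were in 37.9% of all windows. The motif GAGAGA was in the window of cdc-48.2 alone, 35 bp into the gene, and in 21.8% of all windows.

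The motif GACGCA (8.78% of all windows), the unfolded protein response element TGACGTG (2.93%) and the heat shock element core GAANNTTC (18.5%) were in none of the 5 windows. Within 50 bp of the cdc-48.1 summit only TATAAA matched, as it did at 9.55% of nuclear thresholded summits and 17.5% of nuclear pooled ones. The motif GACGCA was within 50 bp of 21.6% of nuclear thresholded summits and 1.74% of nuclear pooled ones, and GAGAGA of 20.6% and 4.91%. Both were searched for because they had been reported as frequent at the peaks of this series, so these shares are not a separate result. A match is a description of these letters and not a binding site.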

How the data were processed

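NHR-12 joined to GFP was immunoprecipitated, per the sample description, in 2 biological replicates of whole L2 larvae. Fragments were of 150 to 350 bp per the labels. The authors deposited peak lists on ce11 with a signal value and a −log10 q-value per peak, called against a control, which was not analysed here. Per the accompanying notes, the pooled list was made from both replicates and the thresholded list from the pooled and replicate lists by an IDR threshold. Not given in the sources used here are the caller, the aligner, their settings and the IDR threshold. The signal value, as deposited, served to rank and describe peaks within a list, and the deposited −log10 q-value was not used for ranking. Lists on ce10 were not used.

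Genes came from Ensembl release 115 and sequences from the RefSeq genome of WBcel235. Python 3.11.15 was used with numpy 2.4.6, pandas 2.3.3, Biopython 1.88 and matplotlib 3.10.9, and the assignment of summits was tested on simulated data. Ranks are by signal value within a list, nuclear ranks without mitochondrial peaks, and positions are counted from 1. Paralogues were aligned end to end, and repeats were exact matches of 36 bases on either strand. No test was run: there is 1 group, and the members, lists and motifs were chosen with earlier results of these data known. Named genes were the 5 members, their neighbours and genes at their summits, pathway genes with a thresholded summit or among the strongest 1000 nuclear pooled peaks, and the 5 genes nearest to cdc-48.1 in rank. Genes at the top and narrowest peaks, pathway genes with no summit, and ubxn-2 and ufd-3 were named once their values were known. The alternatives tried were shorter and longer upstream distances, interval overlap, nearest 5' ends, upstream windows alone, stronger peaks only, nuclear ranks, other motif windows and each replicate alone.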

Additional observations from a re-analysis of the deposited data

How the results depend on the processing

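Of 88 values recomputed under alternatives, 80 stayed within 1.5 times the value reported and 8 moved. Many of the 80 could not have moved. The cdc-48.1 summit lies 180 bp upstream, inside every upstream distance tried, and the stronger peaks kept the ranks of the full lists. With 2000 bp upstream, the number of the 5 genes with a replicate 1 summit rose from 2 to 3, which counts as within 1.5 times. The number of the 5 genes with a thresholded summit was 1 in all the alternatives run. The rank of cdc-48.1 among all peaks was 32 in the thresholded and pooled lists, 27 in replicate 1 and 38 in replicate 2. Among nuclear peaks it was 4, 4, 4 and 11, since the mitochondrial peaks above it are left out by construction. Pathway genes with a thresholded summit, 0 as reported, came to 1 when any base of the interval counted. This was through a peak of 39.3 whose interval reaches the window of ubq-1. Its summit lies outside that window, 3594 bp from the 5' end of ubq-1, and F25B5.5 has the nearest 5' end. With a replicate left out, the strongest 228 peaks of the other replicate stood in for the thresholded list, since IDR needs both. The count of pathway genes was then from 0 to 1, through ubxn-2 at 15.8 in replicate 1. With 2000 bp upstream, cdc-48.2 had 1 summit in replicate 1, with a signal value of 4.76. In 100 bp around the summit, 1 motif matched at cdc-48.1, against 2 in its promoter window. No paired analysis was possible because there is only 1 group.

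With no counts and no control coverage, a gene without a summit cannot be told from one with weak enrichment under the lowest value of a list.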

Other observations

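Beyond the windows of the 5 genes, all 3 relaxed lists had a summit downstream of cdc-48.1. The nearest one was 4388 bp from its 5' end with a signal value of 9.37 in the pooled list, 4612 bp with 8.12 in replicate 1 and 4266 bp with 11.1 in replicate 2. In the thresholded list the nearest was 11228 bp away with 46.1, where mnk-1 had the nearest 5' end. The relaxed ones had nuclear ranks of 28570 (pooled), 1294 (replicate 1) and 13596 (replicate 2), and the lowest pooled signal value was 9.21. Relaxed summits are dense. The median distance from a protein-coding gene's 5' end to the nearest was 1167, 997 and 1142 bp in these lists.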
